A study of Mus musculus with 12 samples.

Results

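The FoxO factors, atrophy ligases and autophagy genes of muscle, 10 genes in all, were described in C2C12 cells, an established line of mouse myoblasts that fuse into myotubes when serum is reduced. The 10 genes were chosen by symbol from the deposited gene table, which holds 78275 gene IDs, of which 15030 were expressed highly enough to be tested; all 10 were among the tested genes. They are the transcription factors Foxo1 and Foxo3, the muscle ubiquitin ligase genes Fbxo32 and Trim63, the autophagy genes Ulk1, Map1lc3a, Map1lc3b, Gabarapl1 and Sqstm1, and the lysosomal protease gene Ctsl. Cells labelled wild type received either a non-targeting siRNA (control) or an siRNA against Zfp143, a zinc finger activator of transcription (knockdown), while growing in 10% fetal bovine serum. A portion was collected 24 hours later (uninduced), and the remainder was switched to 1% horse serum, which starts fusion, and collected on day 5 (induced). Each of the 4 groups, uninduced control, uninduced knockdown, induced control and induced knockdown, has 3 libraries of poly(A)-selected RNA. All libraries share 1 cell line and 1 labelled batch. Whether the replicates are separate cultures is not stated, and p-values cover only the spread among these libraries, which may be technical. Induced cells were also harvested later after transfection than uninduced ones, so induction and time since transfection cannot be told apart.

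FoxO factors are held in the cytoplasm when AKT phosphorylates them downstream of insulin and IGF-1, and enter the nucleus when that signal falls. In muscle they are known to activate Fbxo32 (atrogin-1, MAFbx) and Trim63 (MuRF1), which mark muscle proteins with ubiquitin for the proteasome, together with autophagy genes. In autophagy the ULK1 kinase starts the process, Atg8 proteins (the LC3 and GABARAP families) are attached to the growing membrane, receptors such as SQSTM1 (p62) bring ubiquitinated cargo to them, and lysosomal proteases such as cathepsin L degrade what is delivered.

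Library totals ran from 13520906 to 19068323 estimated counts. Uninduced control replicate 3 stood apart from the other uninduced control libraries: mitochondrial genes took 6.02% of its counts against 2.63% and 2.90%, and genes with short transcripts were a median of 0.32 higher on the log2 scale than in those libraries, while long ones differed by -0.23. The lowest depth and the lowest mitochondrial share, 1.95%, were those of induced knockdown replicate 1. Results that change when these libraries are left out are given so below. The siRNA target itself, Zfp143, stood at 23.2, 27.8 and 39.8 CPM (counts as a share of the library's total, scaled between libraries by TMM factors) in uninduced control and at 12.2, 11.9 and 10.1 CPM in uninduced knockdown, a log2 fold change of -1.41 (SE 0.183, adjusted p = 6.12e-05, edgeR's quasi-likelihood test). At day 5 it stood at 19.7, 19.3 and 19.3 CPM in control and at 14.7, 16.8 and 19.7 CPM in knockdown, which did not differ in that test (log2 fold change -0.18, 95% interval -0.57 to 0.20). The day 5 libraries are therefore called knockdown by their label; reduced Zfp143 RNA was not detected in them. Of 9 muscle lineage markers, 8 or 9 had any count in every group. In the uninduced groups, however, Myh3, Acta1 and Ckm had group means of no more than 0.036, 0.570 and 0.058 CPM. The 9 markers summed to 482 to 574 CPM in uninduced control and 515 to 595 CPM in uninduced knockdown. Within these sums Myf5 stood at 56.8 and 16.9 CPM and Des at 304 and 372 CPM. Of the markers of other cell types, Adgre1, Epcam, Krt5, Rbfox3 and Snap25 were at 0 in every group, and Ptprc was at no more than 0.153 CPM, Cdh5 at no more than 0.076 CPM and Adipoq at no more than 0.070 CPM in any group mean. The 5 leukocyte markers summed to 1.87 to 3.15 CPM in uninduced control and 9.15 to 10.5 CPM in uninduced knockdown, with Cd68 at 1.52 and 5.71 CPM and Csf1r at 0.570 and 3.44 CPM. The 4 epithelial markers summed to 1.12 to 1.87 and 4.52 to 7.65 CPM in these groups, with Krt19 at 1.47 and 5.55 CPM, so both lists were higher in every uninduced knockdown library. At day 5 the leukocyte sums were 3.41 to 4.01 CPM in control and 2.32 to 3.80 CPM in knockdown, and the epithelial ones 1.47 to 2.48 and 0.951 to 1.73 CPM. Over all libraries the 4 adipocyte markers summed to 225 to 521 CPM, nearly all of it Lpl, the 4 neuronal ones to 7.34 to 21.4 CPM, led by Stmn2 and Tubb3, and the 4 endothelial ones to 1.95 to 5.32 CPM. The part of these cell types in the siRNA and induction results was not tested. RNA of these bulk samples cannot tell fewer cells of a type from less RNA per cell.

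On the deposited TPM scale, which corrects for transcript length and so allows genes to be compared, Sqstm1 was highest in uninduced control at 3118 to 4348 TPM, followed by Ctsl at 1465 to 1564 TPM, Gabarapl1 at 156 to 249 TPM and Map1lc3b at 125 to 154 TPM. None of these neighbours overlapped. Map1lc3a (21.4 to 41.9 TPM) overlapped Foxo3 (14.3 to 33.2 TPM), and Foxo3 overlapped Ulk1 (8.06 to 19.8 TPM). Foxo1 (3.14 to 5.85 TPM), Fbxo32 (2.22 to 4.53 TPM) and Trim63 (1.62 to 3.20 TPM) formed the low end and overlapped in that order. By day 5 in control cells the order had shifted: Ctsl at 949 to 960 TPM and Sqstm1 at 932 to 943 TPM led, Map1lc3b (284 to 315 TPM) and Map1lc3a (203 to 213 TPM) both stood above Gabarapl1 (151 to 164 TPM), and Fbxo32 (37.1 to 45.9 TPM) stood above Foxo3 (25.1 to 31.1 TPM), whose range overlapped that of Ulk1 (24.2 to 27.3 TPM). Foxo1 was the lowest member there at 4.86 to 5.38 TPM, below Trim63 at 18.3 to 25.4 TPM. All changes described in the following are in TMM-scaled CPM, gene by gene.

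**Figure D1:**
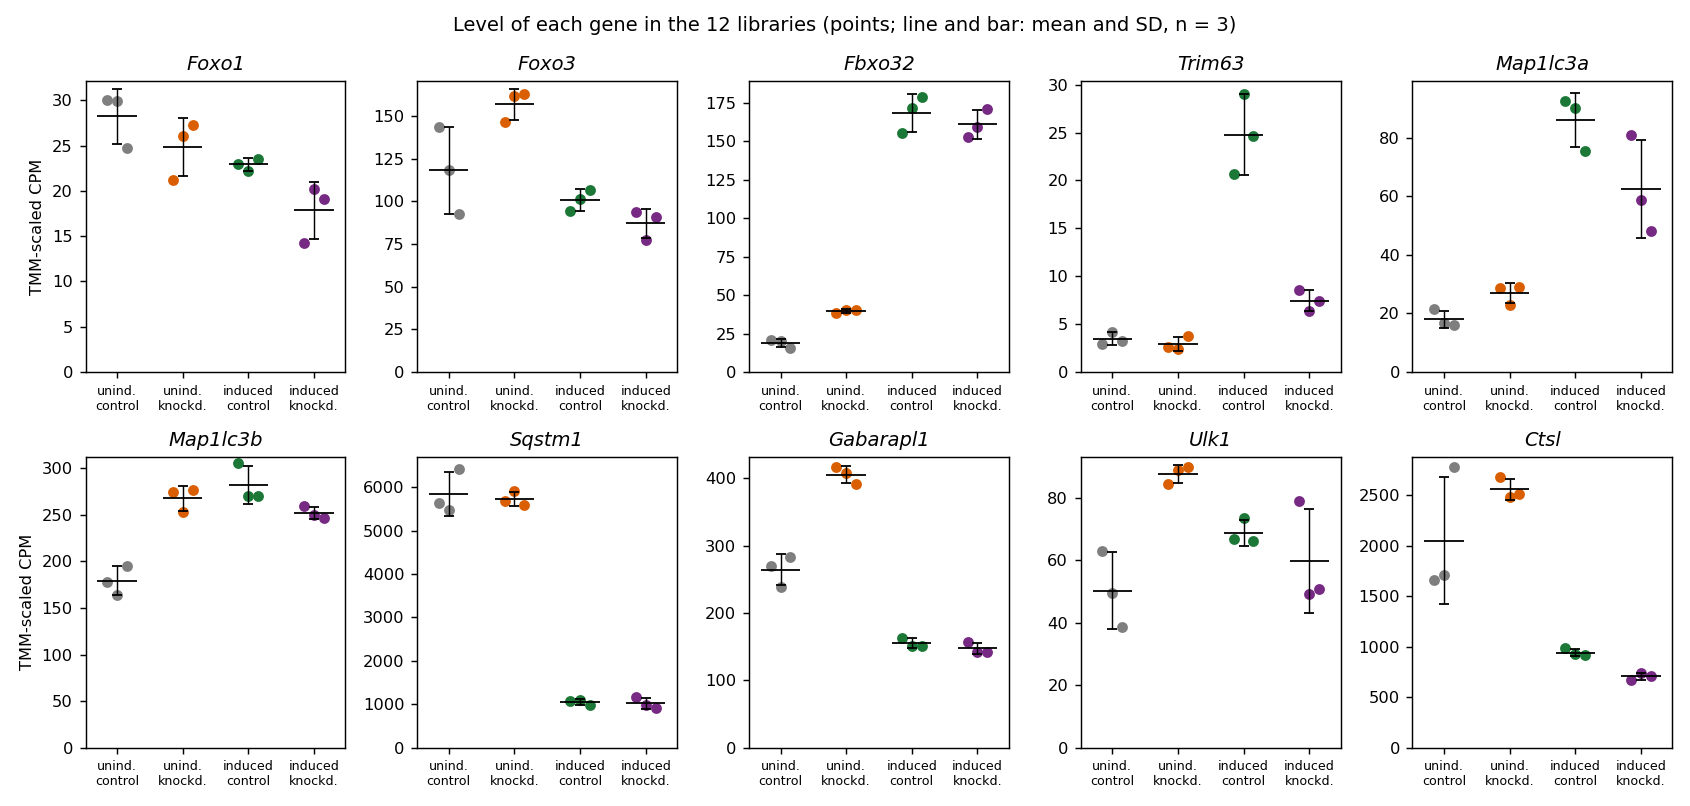
TMM-scaled CPM (linear axis from 0) of each of the 10 genes in the 12 libraries; points are libraries, lines and bars the mean and SD of 3 libraries. Fbxo32, Trim63 and Map1lc3a sit higher in both induced groups than in the uninduced ones, Sqstm1 sits lower in both induced groups than in the uninduced ones, and Gabarapl1 is highest in the uninduced knockdown libraries.

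The promoters of the members differ in kind, and stretches of them are shown because 5 of the 6 genes below moved with the siRNA in at least 1 comparison or interaction and the other, Sqstm1, did not. Sequences are from the RefSeq promoter table on build GRCm38.p6, which held 8 of the 10 members, Fbxo32 and Map1lc3a not among them. They read 5′ to 3′ along the gene. The windows are chr4:134314900-134315000 (Trim63, plus strand), chr13:64370671-64370770 (Ctsl, minus strand), chr5:110810082-110810201 (Ulk1, minus strand), chr6:129533072-129533191 (Gabarapl1, plus strand), chr8:121590318-121590437 (Map1lc3b, plus strand) and chr11:50210821-50210940 (Sqstm1, minus strand). Capitals mark the letters GTAAACA of a FoxO element in Trim63, the E-box letters CACGTG in Ctsl, and GC boxes in the other genes, on either strand. CACGTG is the core of the CLEAR element known for TFEB, but the letters around that core were not searched.
Trim63: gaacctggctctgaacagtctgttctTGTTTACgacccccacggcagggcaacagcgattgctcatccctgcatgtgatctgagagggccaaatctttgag
Ctsl: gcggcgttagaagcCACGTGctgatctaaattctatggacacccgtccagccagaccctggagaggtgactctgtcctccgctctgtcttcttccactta
Ulk1: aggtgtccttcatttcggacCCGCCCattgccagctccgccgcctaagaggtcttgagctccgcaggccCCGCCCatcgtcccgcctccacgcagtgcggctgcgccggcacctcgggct
Gabarapl1: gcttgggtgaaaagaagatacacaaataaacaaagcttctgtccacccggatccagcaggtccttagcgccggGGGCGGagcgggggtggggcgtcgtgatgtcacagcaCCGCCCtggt
Map1lc3b: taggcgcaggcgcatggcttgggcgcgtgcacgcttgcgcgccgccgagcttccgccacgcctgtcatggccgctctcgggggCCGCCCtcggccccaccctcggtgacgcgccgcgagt
Sqstm1: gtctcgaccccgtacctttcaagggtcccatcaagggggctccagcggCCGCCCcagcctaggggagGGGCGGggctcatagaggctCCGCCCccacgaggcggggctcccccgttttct
The exact letters GTAAACA, searched on both strands over the 250 bases before each start, were in the Trim63 window alone among the 8 members, as their reverse complement 194 bases upstream, and in 3.17% of 32851 promoters. Looser forms of the FoxO element were not searched. The Gabarapl1 stretch above holds ataaaca, which differs in the first letter and is not marked. Trim63 was also the only one of the 8 with TATAAA, 31 bases upstream, which 12.4% of promoters hold. The E-box CACGTG was in Ctsl alone, 236 bases upstream, and in 6.02% of promoters. The GC box GGGCGG was in 6 of the 8 members and in 32.7% of promoters. CCCANNATG, the core letters of the motif known for ZNF143, was in 0 of the 8 members and in 4.06% of promoters. No matches of different motifs overlapped. The motifs were chosen after these windows had been looked at, and a match is a description of letters, not of binding.

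With the siRNA in uninduced cells, 6 of the 10 genes rose and 0 fell: Foxo3, Fbxo32, Ulk1, Map1lc3a, Map1lc3b and Gabarapl1. Over all tested genes, 32.5% were called in this comparison, 15.4% higher and 17.1% lower, at an adjusted p under 0.05. The median log2 fold change was 0.49 over the members and -0.04 over all tested genes. By edgeR's unadjusted p under 0.05, by DESeq2 and by limma-voom, 0 members fell as well. With 3 libraries against 3, an exact permutation test of a single gene cannot give a two-sided p below 0.1, and each of the 6 genes reached that value because its groups did not overlap. These genes were already called on the same libraries, so their separation is no further support. The share of all tested genes without overlap was not counted.

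Among the factors, Foxo3 stood at 143, 119 and 92.3 CPM in uninduced control and at 146, 161 and 163 CPM in uninduced knockdown. The knockdown libraries were all higher, the first of them narrowly. The log2 fold change was 0.41 (SE 0.145, adjusted p = 0.0421, edgeR). This call was lost, with adjusted p from 0.0646 to 0.124, without uninduced control replicate 2 or 3 or any 1 of the knockdown libraries, and was 0.102 when libraries were scaled by their totals alone. Foxo1, the other FoxO member, stood at 30.0, 29.9 and 24.7 CPM in control and at 21.2, 26.0 and 27.3 CPM in knockdown, and the groups overlapped (log2 fold change -0.18, 95% interval -0.51 to 0.14). Of the remaining FoxO genes, Foxo4 rose from 17.6 ± 0.411 to 23.3 ± 2.24 CPM (SD, n = 3) and Foxo6, a low gene, fell from 1.72 ± 0.300 to 0.859 ± 0.235 CPM. Foxo4 lost its call without uninduced knockdown replicate 1 (adjusted p = 0.0519) or 2 (0.0717), and Foxo6 without uninduced control replicate 1 or 2 or any 1 knockdown library (0.0548 to 0.126).

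The ubiquitin ligase genes parted. Fbxo32 stood at 20.9, 20.2 and 15.7 CPM in control and at 38.1, 40.6 and 40.0 CPM in knockdown. The knockdown libraries lay close together and well above every control library, with a log2 fold change of 1.06 (SE 0.126, adjusted p = 2.53e-05, edgeR). Trim63 was low in both groups, at 2.93, 4.23 and 3.28 CPM in control and at 2.63, 2.42 and 3.73 CPM in knockdown, and the groups overlapped (log2 fold change -0.25, 95% interval -0.74 to 0.24). Of all tested genes 15.4% were called higher and 17.1% lower in this comparison, so a list count near these shares says little about the list. Of the 15 muscle ubiquitin ligase genes listed, Fbxo32 and Trim63 included, 4 rose and 2 fell, or 5 fell without both libraries that stood apart. The largest rise outside the members was that of Trim54 (MuRF3), from 4.61 ± 1.32 to 17.0 ± 2.14 CPM (SD, n = 3), and the largest fall that of Fbxo31, from 18.7 ± 3.36 to 11.5 ± 1.31 CPM. Among 18 other FoxO target genes 4 rose and 4 fell, with 2 fallen without uninduced control replicate 1 or 2 or uninduced knockdown replicate 1 or 3. Ccng2, which encodes cyclin G2, rose from 49.0 ± 8.64 to 287 ± 4.52 CPM, while Txnip, which encodes an inhibitor of thioredoxin, fell from 91.9 ± 23.4 to 29.0 ± 2.30 CPM.

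The start of autophagy was represented by Ulk1, at 63.0, 49.4 and 38.5 CPM in control and 84.3, 88.8 and 89.7 CPM in knockdown. The groups did not overlap, and the control libraries were spread far more widely than the knockdown ones. The log2 fold change was 0.80 (SE 0.186, adjusted p = 0.00458, edgeR). Of the 5 initiation genes, Atg101, a subunit of the ULK1 complex, was the other that rose, from 32.3 ± 8.56 to 56.6 ± 2.30 CPM (SD, n = 3). In the lipid kinase complex that acts next, 1 of 7 genes rose and 2 fell, with Atg14 at 20.8 ± 0.589 against 39.5 ± 4.52 CPM and Ambra1 at 46.1 ± 9.47 against 28.4 ± 3.23 CPM. The shares over all tested genes were 15.4% higher and 17.1% lower. Among 17 genes of membrane expansion and Atg8 conjugation, 0 passed edgeR's adjusted threshold; at an unadjusted p under 0.05 there were 2 higher and 3 lower, DESeq2 called 2 higher and limma-voom 1. Without uninduced control replicate 3, edgeR called 3 of them higher and 2 lower.

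The 3 Atg8 members all rose. Map1lc3b (LC3B) stood at 178, 164 and 195 CPM in control and at 275, 253 and 277 CPM in knockdown, a log2 fold change of 0.58 (SE 0.112, adjusted p = 0.00129, edgeR). Gabarapl1 stood at 270, 239 and 284 CPM against 416, 408 and 392 CPM, a log2 fold change of 0.62 (SE 0.110, adjusted p = 0.000718). Both pairs of groups were separated by more than the range of either group. Map1lc3a (LC3A) stood lower, at 21.4, 16.6 and 16.1 CPM in control and at 28.7, 22.9 and 28.9 CPM in knockdown. Its groups nearly touched, and its log2 fold change of 0.57 (SE 0.186, adjusted p = 0.0287) lost the call without uninduced control replicate 2 or 3 or knockdown replicate 1 or 3, with adjusted p from 0.0545 to 0.0992. The remaining Atg8 genes were Gabarapl2, at a log2 fold change of 0.42 (adjusted p = 0.0548), and Gabarap, at 0.05 (adjusted p = 0.851). Without uninduced control replicate 3 these were 0.68 (adjusted p = 0.000270) and 0.32 (adjusted p = 0.0426), both higher in knockdown. With all libraries, Gabarapl2 was called higher by DESeq2 (adjusted p = 0.0275) and limma-voom (adjusted p = 0.0354). In edgeR it was also called higher with the other scalings, the stricter filter and the replicate block, but not with no filter or the compared groups alone.

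The cargo receptor and the protease did not pass. Sqstm1 stood at 5631, 5472 and 6424 CPM in control and at 5689, 5916 and 5593 CPM in knockdown. The groups overlapped, and the interval of the log2 fold change, -0.33 to 0.28, bounds any difference in the steady level of this abundant transcript. Of 11 cargo receptor genes 2 rose and 1 fell, where 15.4% of all tested genes were called higher and 17.1% lower. Bnip3, a receptor on mitochondria, rose from 185 ± 78.2 to 522 ± 2.55 CPM (SD, n = 3), and Ncoa4, the receptor for ferritin, fell from 279 ± 97.9 to 182 ± 9.28 CPM. The cargo receptor count of 1 lower was 0 without uninduced control replicate 3, without uninduced knockdown replicate 1 or 3 and with the compared groups alone, and 2 without uninduced knockdown replicate 2. Ctsl stood at 1663, 1714 and 2774 CPM in control and at 2677, 2480 and 2509 CPM in knockdown. Only uninduced control replicate 3 was as high as the knockdown libraries. With it the log2 fold change was 0.32 (95% interval -0.05 to 0.69, adjusted p = 0.181), and without it 0.60 (adjusted p = 0.000278, edgeR). On the TPM scale Ctsl was 1465 to 1564 TPM in control and 1804 to 1845 TPM in knockdown, with no overlap. Of the 31 tested lysosomal genes 12 rose and 1 fell, led by Npc2, a carrier of cholesterol inside lysosomes, from 415 ± 91.8 to 1188 ± 111 CPM. Scarb2, a lysosomal membrane protein gene, fell from 172 ± 13 to 130 ± 8.64 CPM. The lysosomal count of 12 higher was 7 without uninduced control replicate 2, and that of 1 lower was 0 without uninduced knockdown replicate 1 or 3 and 2 without uninduced control replicate 3.

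**Figure D2:**
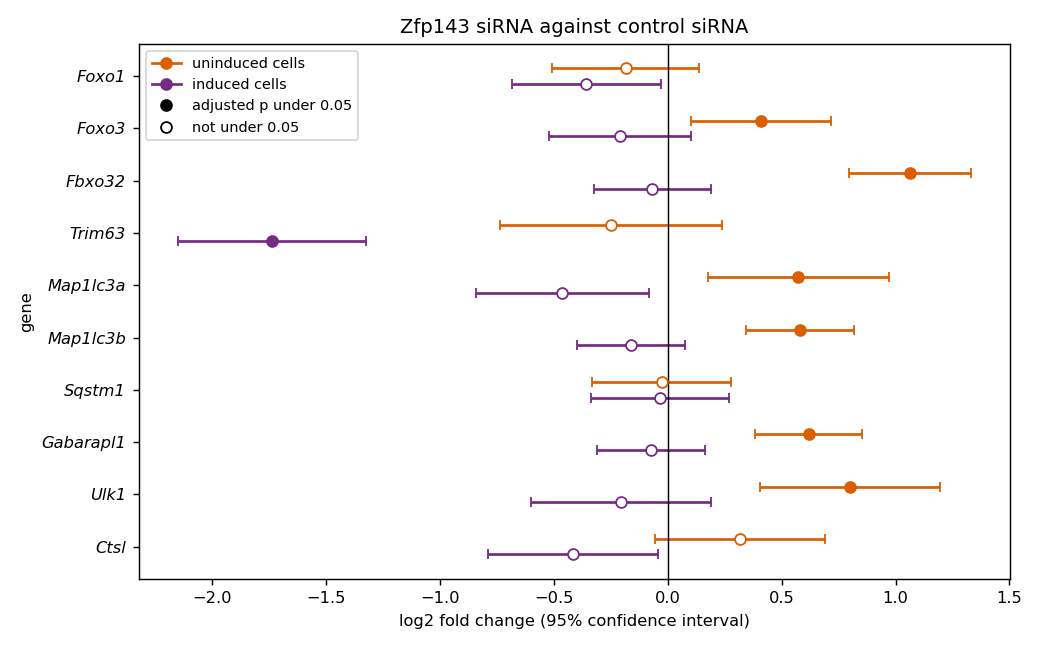
Log2 fold change between Zfp143 siRNA and control siRNA for each gene (horizontal axis) with its 95% confidence interval, in uninduced cells and at day 5 of induction; filled points have an adjusted p under 0.05. In uninduced cells 6 points are filled and to the right of 0, and at day 5 Trim63, at -1.74, is the only filled point.

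At day 5 of induction the picture with the siRNA was another: Trim63 fell, and no other of the 10 genes passed. In this comparison 9.49% of all tested genes were called, 3.73% higher and 5.77% lower. The median log2 fold change was -0.21 over the members and -0.03 over all tested genes. By edgeR's unadjusted p under 0.05, by DESeq2 and by limma-voom, 0 members rose as well. When libraries were scaled by their totals alone, 681 of all genes were called higher and 631 lower, against 560 and 867 with TMM factors, and Trim63 was still the only member called.

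Trim63 stood at 20.7, 29.0 and 24.7 CPM in induced control and at 8.57, 6.39 and 7.41 CPM in induced knockdown. Every knockdown library was far below every control library. The log2 fold change was -1.74 (SE 0.193, adjusted p = 2.96e-05, edgeR), and the call was kept in all 15 alternatives, at -1.85 to -1.61. The sum of the 9 muscle lineage markers was 7935 to 9841 CPM in induced control and 3372 to 4446 CPM in induced knockdown, without overlap. Contractile genes and Ckm made up much of that difference. Acta1 had group means of 4206 and 1435 CPM, Myh3 1578 and 537 CPM and Ckm 304 and 52.6 CPM. Lineage genes differed less, with Myod1 at 55.0 and 48.5 CPM and Cdh15 at 81.1 and 76.2 CPM. The part of these markers in the Trim63 result was not tested. Fbxo32, the companion ligase, did not follow: it stood at 155, 172 and 179 CPM in control and at 153, 159 and 171 CPM in knockdown, with overlap (log2 fold change -0.07, 95% interval -0.32 to 0.19). Of the 15 ligase genes 5 fell, and 0 rose, also at edgeR's unadjusted p under 0.05, by DESeq2 and by limma-voom. The shares over all tested genes were 3.73% higher and 5.77% lower. The largest fall was that of Fbxo40, a muscle-restricted ligase gene, from 11.7 ± 2.25 to 1.84 ± 0.666 CPM (SD, n = 3).

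The other members were level or slightly lower. Map1lc3a stood at 92.7, 90.1 and 75.5 CPM in control and at 80.9, 58.7 and 48.0 CPM in knockdown, a log2 fold change of -0.46 (adjusted p = 0.140). Only knockdown replicate 1, the shallowest library, reached the control range. The average effective transcript length of Map1lc3a was 976 bases in that library and 676 and 719 in knockdown replicates 2 and 3. On the TPM scale, Map1lc3a was at 124 to 157 TPM in knockdown and 203 to 213 TPM in control, without overlap. Without knockdown replicate 1 the log2 fold change was -0.69 (adjusted p = 0.0136, edgeR), and with transcript length as an offset it was -0.64 (adjusted p = 0.00366). Ctsl stood at 984, 922 and 918 CPM against 670, 734 and 712 CPM. These groups did not overlap, but the log2 fold change of -0.42 did not pass over all genes (adjusted p = 0.185). Ulk1 was 66.8, 73.4 and 66.0 CPM in control and 78.9, 49.2 and 50.9 CPM in knockdown, with knockdown replicate 1 above and the others below every control library (log2 fold change -0.21, 95% interval -0.60 to 0.19). Foxo1 was at 23.0, 22.2 and 23.6 CPM against 14.3, 20.2 and 19.1 CPM, without overlap but also without a call (log2 fold change -0.36, adjusted p = 0.195). Foxo3 stood at 94.1, 102 and 106 CPM against 93.5, 77.4 and 90.5 CPM, with a log2 fold change of -0.21 (adjusted p = 0.481). The intervals of Map1lc3b (-0.40 to 0.08), Gabarapl1 (-0.31 to 0.16) and Sqstm1 (-0.34 to 0.27) all included 0. Without both libraries that stood apart, Map1lc3a, Ulk1 (log2 fold change -0.46) and Ctsl (-0.38) joined Trim63, giving 4 members lower.

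Around the members, the listed pathway genes called at day 5 with all libraries were all lower. Of all tested genes 3.73% were called higher and 5.77% lower there. Foxo6 fell from 6.34 ± 0.932 to 2.67 ± 1.10 CPM (SD, n = 3), although that call was lost without induced control replicate 2 (adjusted p = 0.0551) or induced knockdown replicate 2 (adjusted p = 0.0553, edgeR). Of 18 other FoxO targets 2 fell, with Gadd45a, a stress gene of growth arrest, at 303 ± 28.1 against 143 ± 8.38 CPM. That count was 1 without induced knockdown replicate 2 and with libraries scaled by their totals alone, and without both libraries that stood apart 4 of the 18 fell and 3 rose. Of 31 lysosomal genes 5 fell, with Ctsh at 29.2 ± 2.87 against 18.2 ± 1.35 CPM. That lysosomal count was 1 without induced control replicate 1, 2 without induced control replicate 2 or 3 or induced knockdown replicate 3, and 16 without both libraries that stood apart. In the initiation, lipid kinase, conjugation, Atg8 and cargo receptor lists 0 genes passed edgeR's adjusted threshold. At an unadjusted p under 0.05 there were 2 lower in the conjugation list, 1 in the Atg8 list and 3 among the cargo receptors, of which DESeq2 called 2 and limma-voom 1. Without both libraries that stood apart, genes were called lower in each of these lists except the lipid kinase one. The replicate block also gave genes lower in the conjugation, Atg8 and cargo receptor lists. Over all alternatives the highest counts lower were 1 in the initiation and Atg8 lists, 2 in the conjugation list and 3 among the cargo receptors.

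For 8 of the 10 genes the siRNA effect differed between the states when the difference itself was tested as an interaction, all in the negative direction, so that the effect was lower at day 5 than before induction. Of all tested genes 22.5% were called in this test, 10.6% higher and 11.8% lower. The median was -0.74 over the members and 0.02 over all tested genes. The largest differences were those of Trim63, -1.49 (SE 0.299, adjusted p = 0.00272, edgeR), and Fbxo32, -1.13 (SE 0.174, adjusted p = 0.000351), and they arose in different ways. The siRNA effect on Fbxo32 was 1.06 in uninduced and -0.07 in induced cells, and that on Trim63 was -0.25 and -1.74. Map1lc3a (-1.04, adjusted p = 0.00992), Ulk1 (-1.01, adjusted p = 0.0130), Map1lc3b (-0.74, adjusted p = 0.00387) and Gabarapl1 (-0.69, adjusted p = 0.00560) were the other firm cases, called in all 20 alternatives. Foxo3 (-0.62, adjusted p = 0.0420) and Ctsl (-0.73, adjusted p = 0.0448) were called narrowly and lost the call in 11 of 20 alternatives each. Foxo1 (-0.17, 95% interval -0.63 to 0.29) and Sqstm1 (-0.01, 95% interval -0.44 to 0.42) were not called. With edgeR at an unadjusted p under 0.05, DESeq2 and limma-voom alike, 0 members had a positive difference. Zfp143 itself differed in the opposite direction, by 1.22 (adjusted p = 0.00358).

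Induction in control cells moved 8 of the 10 genes, 5 higher and 3 lower. The background was high: 64.1% of all tested genes were called, 33.2% higher and 30.9% lower, so the number of members called says little about them, and their sizes are the result. The median was 0.11 over the members and 0.03 over all tested genes. In knockdown cells 9 members were called, 3 higher and 6 lower, against 66.1% of all tested genes, 36% higher and 30.1% lower, with medians of -0.52 and 0.10. When libraries were scaled by their totals alone, the medians of all tested genes became 0.21 in control and 0.35 in knockdown cells, and 6597 genes were called higher and 3371 lower in knockdown cells, against 5406 and 4526 with TMM factors. The comparisons share libraries with those of the siRNA: uninduced control enters both, so their values are given side by side and no agreement between them is counted.

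Both ligases and Map1lc3a rose most. Fbxo32 went from 20.9, 20.2 and 15.7 CPM to 155, 172 and 179 CPM in control cells, a log2 fold change of 3.15 (SE 0.124, adjusted p = 2.61e-11, edgeR). In knockdown cells, which began higher, it was 2.02 (SE 0.121, adjusted p = 2.69e-09). Trim63 rose by 2.83 on the log2 scale in control cells (SE 0.206, adjusted p = 1.75e-08) and by 1.34 in knockdown cells (SE 0.217, adjusted p = 6.99e-05). Its induced control libraries lay at 20.7 CPM or more against at most 4.23 CPM in uninduced control, while the induced knockdown libraries reached no more than 8.57 CPM. Map1lc3a rose by 2.25 (SE 0.183, adjusted p = 6.70e-08) and by 1.22 (SE 0.181, adjusted p = 3.52e-05). None of these groups overlapped between the states. The summed muscle lineage markers went from 482 to 574 CPM to 7935 to 9841 CPM in control cells and from 515 to 595 CPM to 3372 to 4446 CPM in knockdown cells. Within these sums Acta1 went from 0.127 to 4206 CPM and Myh3 from 0.036 to 1578 CPM in control cells. Myf5 went the other way there, from 56.8 to 23.9 CPM, and was at 16.9 and 17.0 CPM in knockdown cells. The other markers had higher means in both induced groups. The part of these markers in the rises was not tested. Among the 15 ligase genes 9 rose and 3 fell in control cells and 8 rose and 3 fell in knockdown cells. The shares over all tested genes were 33.2% higher and 30.9% lower in control cells and 36% and 30.1% in knockdown cells. Trim32, a ligase of thin filament proteins, fell in control cells from 57.5 ± 0.928 to 29.7 ± 0.374 CPM (SD, n = 3), Trim55 (MuRF2) rose in knockdown cells from 7.43 ± 0.734 to 45.8 ± 2.80 CPM, and Fbxo30 (MUSA1) fell there from 221 ± 27.1 to 49.0 ± 9.78 CPM.

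Sqstm1, Ctsl and Gabarapl1 fell. Sqstm1 went from 5472 to 6424 CPM in uninduced control to 1084, 1089 and 974 CPM in induced control, and from 5593 to 5916 CPM to 1168, 990 and 916 CPM under the siRNA. The log2 fold change was -2.48 (SE 0.142) in both, with adjusted p = 1.63e-09 and 2.03e-09 (edgeR). No other member had so nearly equal changes in both arms. Ctsl fell by 1.12 on the log2 scale in control cells (SE 0.175, adjusted p = 5.24e-05) and by 1.86 in knockdown cells (SE 0.175, adjusted p = 3.91e-07). Gabarapl1 fell by 0.77 (SE 0.110, adjusted p = 2.29e-05) and by 1.46 (SE 0.110, adjusted p = 3.04e-08). Its induced levels were nearly the same in both arms, at 164, 151 and 151 CPM and at 157, 142 and 142 CPM, so that the arms differed mainly in where they started.

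Map1lc3b rose in control cells (log2 fold change 0.65, SE 0.112, adjusted p = 0.000120, edgeR), from 178, 164 and 195 CPM to 305, 271 and 270 CPM. In knockdown cells it was at 275, 253 and 277 CPM before and at 259, 250 and 246 CPM after induction, which overlapped (log2 fold change -0.09, 95% interval -0.33 to 0.15). Ulk1 had changes of opposite sign, 0.45 in control cells (SE 0.186, adjusted p = 0.0460) and -0.56 in knockdown cells (SE 0.185, adjusted p = 0.0159), and neither call was stable. The rise was lost without uninduced control replicate 2 or 3 or any 1 of the induced control libraries (adjusted p from 0.0732 to 0.163). The fall was lost without induced knockdown replicate 2 (adjusted p = 0.0774) or 3 (adjusted p = 0.0701), or with libraries scaled by their totals alone (adjusted p = 0.215). Foxo3 fell in knockdown cells by 0.85 (SE 0.145, adjusted p = 0.000125) and differed by -0.23 in control cells (adjusted p = 0.179). Foxo1 fell in knockdown cells by 0.47 (SE 0.153, adjusted p = 0.0131), which was lost without uninduced knockdown replicate 3 (adjusted p = 0.0609) or induced knockdown replicate 1 (adjusted p = 0.0523), and was -0.22 (adjusted p = 0.280) with libraries scaled by their totals alone. In control cells Foxo1 differed by -0.30 (adjusted p = 0.0936). Without uninduced control replicate 3, Foxo1 and Foxo3 were lower in control cells too, both at -0.39 (adjusted p = 0.0330 and 0.0107).

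TPM values of induced and uninduced cells are on shifted scales: the median gene was 0.29 higher in log2 TPM after induction in control cells and 0.60 higher in knockdown cells. Read against that median, each member had the sign given above in both arms. Read without it, Foxo1 (0.12) and Map1lc3b (0.46) came out higher in knockdown cells and Foxo1 (0.07) and Foxo3 (0.17) higher in control cells, in log2 TPM.

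**Figure D3:**
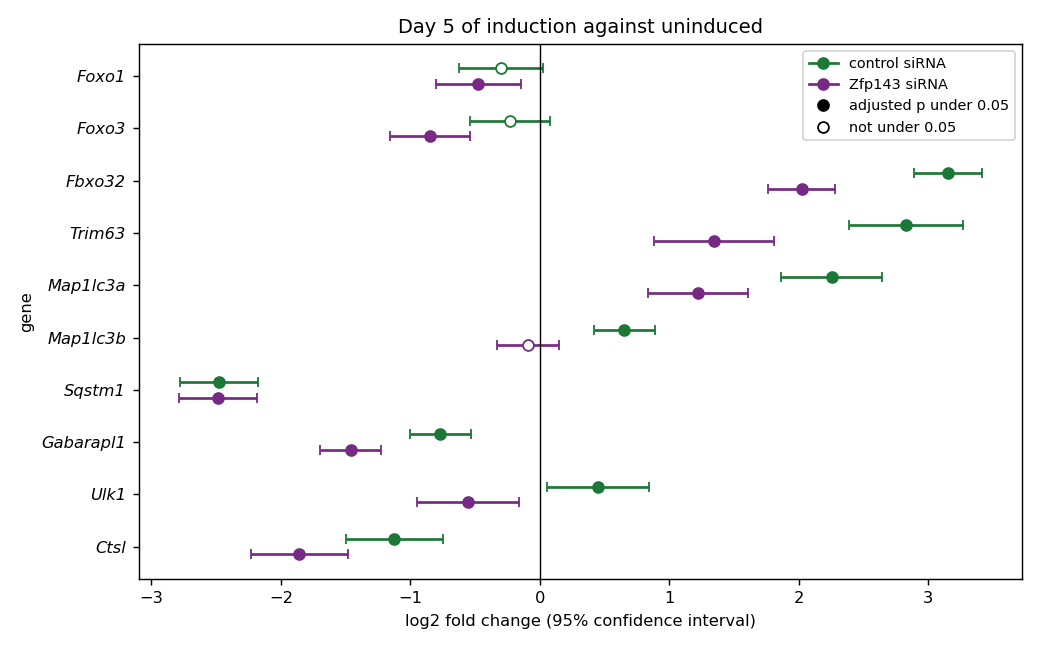
Log2 fold change between day 5 of induction and uninduced cells for each gene (horizontal axis) with its 95% confidence interval, under the control siRNA and the Zfp143 siRNA; filled points have an adjusted p under 0.05. The knockdown point lies to the left of the control point for every gene except Sqstm1, whose points coincide at -2.48.

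The makeup of the Atg8 transcripts changed with these levels. The summed TPM of the 5 Atg8 genes was 943 ± 63.3 TPM in uninduced control and 1182 ± 59.1 TPM in induced control (SD, n = 3). The median gene was also 0.29 higher in log2 TPM after induction there, so these sums alone do not show a rise. Within the sum, Map1lc3a took 3.35% ± 0.868 before and 17.6% ± 0.858 after induction. Map1lc3b took 15% ± 0.665 and 25.7% ± 0.502. Gabarap, the most abundant of them, went from 52.1% ± 4.59 to 35.4% ± 1.44, and Gabarapl1 from 22.0% ± 3.73 to 13.5% ± 0.383. Gabarapl2 stayed between 6.94% and 8.52% in every library. In induced knockdown cells Map1lc3a took 13.1% ± 1.53, and its range of 11.4% to 14.2% did not overlap that of induced control, 17.1% to 18.6%. Among the 4 FoxO genes, Foxo3 took the largest share of the summed TPM in both uninduced groups and in induced control, at 64.4% ± 3.39 in uninduced and 44.6% ± 0.311 in induced control. In induced knockdown its share, 42.5% to 46.5%, overlapped that of Foxo4, 41.7% to 45.0%. Foxo4 took 19.6% ± 2.37 and 36.8% ± 0.886 in uninduced and induced control, while Foxo1 took 12.7% ± 0.977 and 8.06% ± 0.514.

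**Figure D4:**
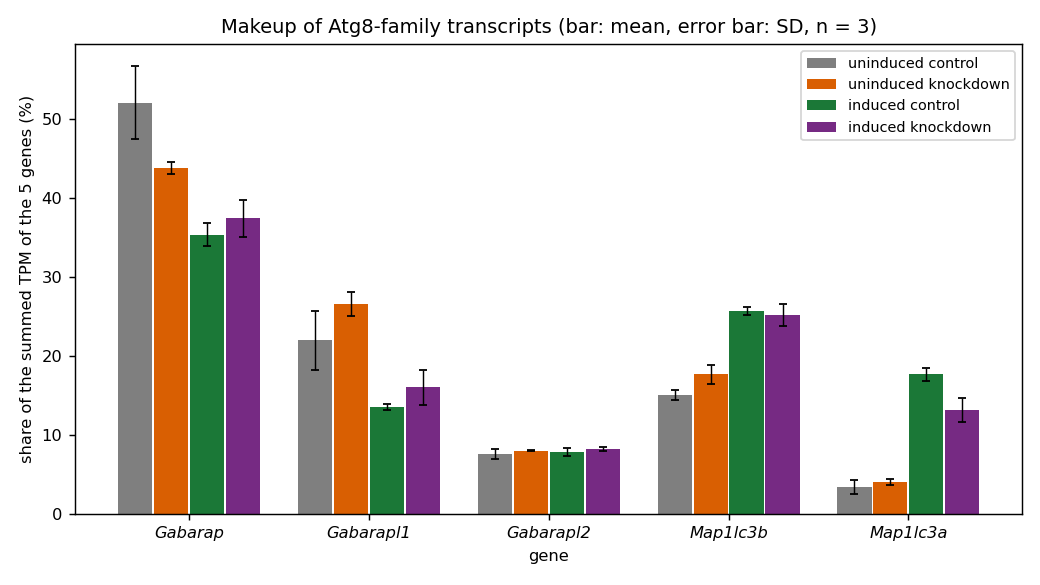
Share of each Atg8 gene in the summed TPM of the 5 genes (percent, axis from 0) in the 4 groups; bars are means and error bars the SD of 3 libraries. Map1lc3a takes 3.35% in uninduced and 17.6% in induced control, and Gabarapl2 stays near 8% throughout.

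Beyond the members, induction in control cells raised 4 of the 5 initiation genes, Ulk1 among them, and 2 of the 3 tested TFEB family genes. Of all tested genes 33.2% were called higher and 30.9% lower, so a list count near these shares says little about the list. Ulk2 rose from 21.2 ± 0.498 to 63.8 ± 4.57 CPM (SD, n = 3). Tfeb, which encodes a master regulator of lysosomal genes, rose from 4.34 ± 0.429 to 14 ± 2.44 CPM, a log2 fold change of 1.69 (adjusted p = 1.95e-05, edgeR), and its relative Tfe3 fell from 101 ± 19.3 to 56.7 ± 1.10 CPM. Foxo4 and Foxo6 rose, with log2 fold changes of 1.24 and 1.88. Of 18 other FoxO targets 11 rose and 4 fell, Pik3ip1, an inhibitor of PI3 kinase, going from 2.33 ± 0.495 to 24.0 ± 2.42 CPM and Eif4ebp1, a repressor of translation, from 224 ± 26.1 to 45.7 ± 6.31 CPM. In the conjugation list 6 of 17 fell, led by Atg5, from 70.5 ± 31.5 to 34.6 ± 2.81 CPM, and Wipi1, which encodes a reader of the membrane lipid PI3P, rose from 30.0 ± 5.67 to 87.7 ± 4.29 CPM. Of 11 cargo receptor genes 3 rose, led by Calcoco1 (109 ± 7.21 to 226 ± 10.6 CPM), and 5 fell, Sqstm1 included. Of 31 lysosomal genes 12 rose and 8 fell, with Ctsf at 2.29 ± 0.517 against 21.0 ± 2.04 CPM and Gla at 76.6 ± 29.3 against 20.7 ± 1.18 CPM. In knockdown cells, where 36% of all tested genes were called higher and 30.1% lower, 8 of the 31 rose and 15 fell. Those 8 were 3 without uninduced knockdown replicate 3, 4 without uninduced knockdown replicate 2, 5 without uninduced knockdown replicate 1, without induced knockdown replicate 1 or 2 or with no low-count filter, and 10 with libraries scaled by their totals alone. The siRNA effect on lysosomal genes differed between the states for 12 of 31, all negative. Without both libraries that stood apart, 21 were negative and 1 was positive. Of all tested genes 10.6% had a positive and 11.8% a negative difference called.

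**Figure D5:**
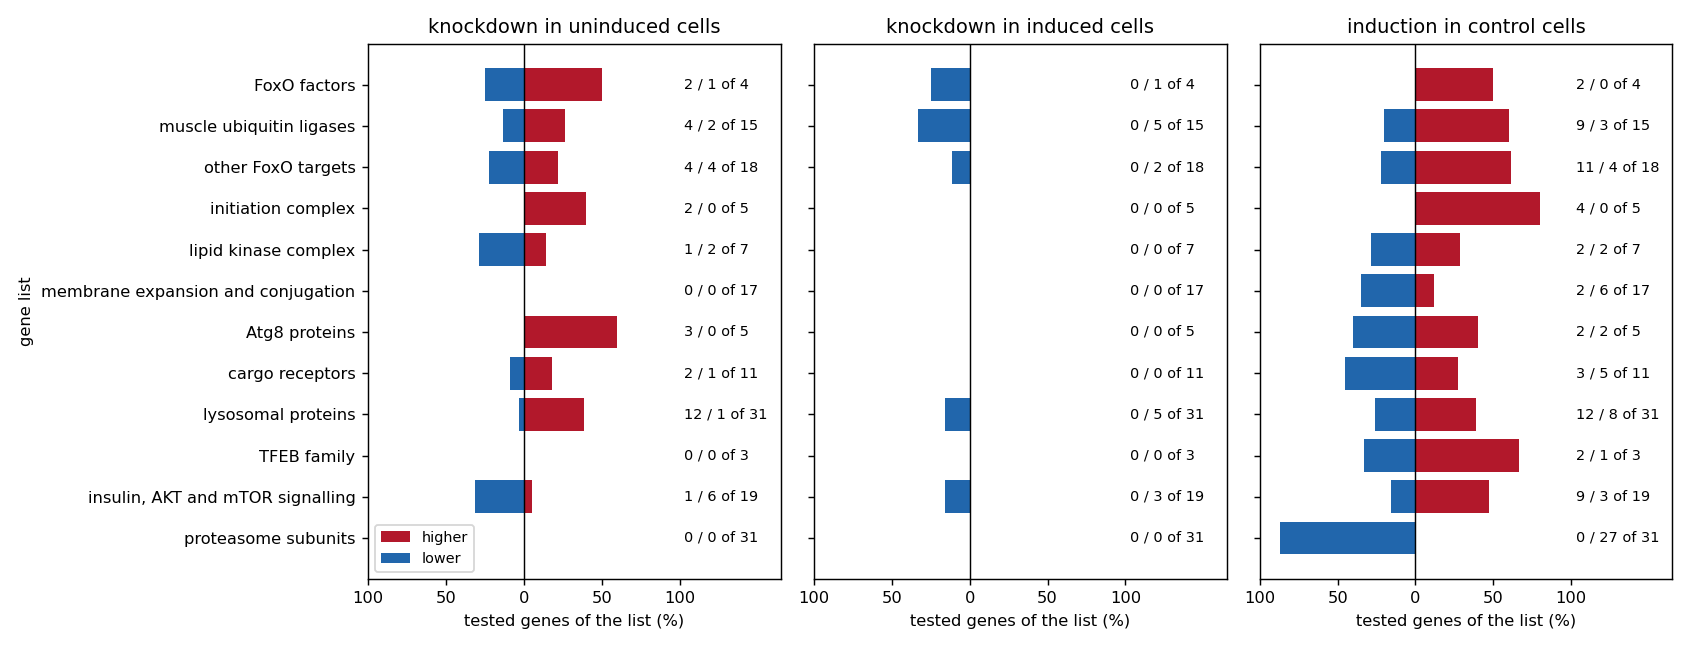
Percent of the tested genes of each pathway list called higher (right of 0) or lower (left of 0) in the siRNA comparisons and in induction of control cells, with the counts higher / lower of all tested printed beside each bar. Lysosomal genes are 12 higher and 1 lower in uninduced cells and 0 higher and 5 lower at day 5, and 27 of 31 proteasome genes are lower after induction.

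The expression patterns nearest to each member were sought among 10691 genes by the root mean square difference of log2 CPM over the 12 libraries, after each gene was centred on its own mean. These libraries form 4 groups, so a small difference largely reflects like group means. Foxo1 lay nearest Ranbp9 (difference 0.0947, Pearson's r = 0.95 over 12 libraries) and Arl8b, Foxo3 nearest 5031439G07Rik (0.117) and Panx1, and Fbxo32 nearest Pdgfra (0.151, r = 0.99) and Plscr4. Trim63 lay nearest Tbx15 (0.316, r = 0.98) and Nexn (0.355). Map1lc3a lay nearest Ypel3 and Cyren (0.148 each), Map1lc3b nearest Ralb (0.0808) and Crebl2, and Gabarapl1 nearest Taldo1 (0.0887) and Pfkp. Sqstm1 lay nearest Pycr1 (0.164) and Nme2, Ulk1 nearest Tbx3 (0.119) and Midn, and Ctsl nearest Rpl9 (0.110) and Pdrg1.

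Some counts could hold reads of neighbours, since the library kit was not strand-specific. In the GENCODE M21 annotation, exons of Foxo1, Fbxo32, Map1lc3b, Sqstm1 and Gabarapl1 each overlap 1 gene on the opposite strand (Gm20402, Gm15943, Zcchc14, Mrnip and 1700101I11Rik), and those of Ctsl overlap Gm47123 and, on the same strand, Gm49230. With the siRNA in uninduced cells, Zcchc14 (-0.59) and Mrnip (-1.16) fell on the log2 scale and 1700101I11Rik rose by 2.15 (adjusted p = 0.00881, 0.00530 and 0.00194, edgeR). Foxo3, Trim63, Map1lc3a and Ulk1 overlap no other gene there. The genes lie on different chromosomes: Foxo1 on 3, Foxo3 on 10, Fbxo32 on 15, Trim63 on 4, Map1lc3a on 2, Map1lc3b on 8, Sqstm1 on 11, Gabarapl1 on 6, Ulk1 on 5 and Ctsl on 13.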

How the data were processed

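Poly(A) RNA of 12 libraries, 3 in each of 4 groups, was measured by RNA-seq. Per the submitters' processing notes, reads were handled with fastp 1.0.1, STAR 2.7.11b, Salmon and build GRCm39; which Salmon version and gene annotation were used is not given in the sources used here. Per the file headers, the deposited table holds, for each library, estimated counts, the average effective transcript length (a score) and scaled TPM values (also treated as a score), all made by the authors. FPKM columns were not used. From its 78810 lines, 535 exact repeats of a gene ID were removed. Headers of 2 libraries (induced knockdown replicates 2 and 3) have swapped letters and were assigned from the rest of the header.

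Estimated counts were rounded, filtered with filterByExpr (minimum count 10, minimum total 15), TMM-scaled and fitted with edgeR 4.0.16 (R 4.3.3) by the robust quasi-likelihood method, with 1 mean per group over 12 libraries (8 residual degrees of freedom). P-values were adjusted by Benjamini-Hochberg over 15030 genes within each of 5 comparisons, and genes under 0.05 are called. The effect of induction is tested within each siRNA and that of the siRNA within each state; the interaction is the siRNA effect in induced minus that in uninduced cells. The procedure was tested on simulated data in which a small set of genes changed in uninduced knockdown alone and no library stood apart. That simulation does not cover comparisons with many genes called or libraries that stand apart. Alternatives were DESeq2 1.42.0, limma-voom 3.58.1, other scalings and filters, a replicate block, the compared groups alone, and libraries left out. No replicate pair agreed within counting noise. Depth of 13520906 to 19068323 counts limits the precision of genes near 3 CPM, such as Trim63 in uninduced cells.

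The 10 members, the 12 pathway lists (166 of 169 symbols tested) and the motifs were chosen with earlier results of these data known. Members are all named. Outside them, the largest rise and fall per list with at least 5 CPM in the higher group could be named, and always Gabarap, Gabarapl2, Foxo4, Foxo6, Tfeb and Zfp143.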

Additional observations from a re-analysis of the deposited data

Results flagged for a closer look

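The following members are listed because the siRNA effect differed between uninduced and induced cells in the interaction test (edgeR, adjusted p under 0.05). The difference, induced minus uninduced, was -0.62 for Foxo3, -1.13 for Fbxo32, -1.49 for Trim63, -1.04 for Map1lc3a, -0.74 for Map1lc3b, -0.69 for Gabarapl1, -1.01 for Ulk1 and -0.73 for Ctsl, all on the log2 scale. For Trim63 the difference came with a fall at day 5. For Foxo3, Fbxo32, Map1lc3a, Map1lc3b, Gabarapl1 and Ulk1 it came with a rise in uninduced cells and no call at day 5. The uninduced calls of Foxo3 and Map1lc3a were lost when some single libraries were left out. Ctsl was called in neither state. Groups of 3 libraries are too small to test single libraries as outliers.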

How the results depend on the processing

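For the 10 members in 5 comparisons, 741 of 800 alternative values kept direction and side of the threshold, 45 lost the call, 14 gained it and 0 of the called values changed sign. The calls of Fbxo32, Trim63, Map1lc3b, Gabarapl1 and Sqstm1 were kept in every alternative of every comparison. The number of all genes lower or higher with the siRNA at day 5, 1427, was 901 to 1361 with single libraries of the induced groups left out, the 901 being without induced control replicate 2. It was 1299 to 2014 with single uninduced libraries left out, which enter only through the shared fit, the 2014 being without uninduced control replicate 3, and 2525 without both libraries that stood apart. There, 1 member was lower; it was 2 with transcript length as an offset (Map1lc3a added), 2 with the replicate block (Map1lc3a added), 2 with the compared groups alone (Ctsl added), 1 to 2 with single libraries of the induced groups left out and 4 without both libraries. For induction in control cells the 3 members lower became 3 to 5 with single control libraries left out, 5 of them without uninduced control replicate 3, and 5 without both libraries. The interaction, called for 3375 genes, was called for 2506 to 4750 with single libraries left out and for 5755 without both. The cause was not tested. Whether replicate numbers pair the libraries is not settled by these values. After group means were removed, same-numbered libraries of different groups correlated between -0.0963 and 0.306 (mean 0.032). Differently numbered ones correlated between -0.279 and 0.249 (mean -0.017), and 3 libraries a group are too few to decide. The replicate block is therefore given only as an alternative.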

Other observations

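Proteasome subunit genes, which encode the machine that degrades what the muscle ligases mark, moved with induction. Of 31 subunits, 27 were lower in control cells and 28 in knockdown cells, and 0 were higher in either, also at edgeR's unadjusted p under 0.05, by DESeq2 and by limma-voom. In control cells 1 was higher without uninduced control replicate 3, without both libraries that stood apart, or with libraries scaled by their totals alone. Of all 15030 tested genes, 33.2% were higher and 30.9% lower in control cells, and 36% and 30.1% in knockdown cells. The median log2 fold change of the list was -0.75 and -0.97. Psmd14, which encodes the deubiquitinase of the lid, went from 278 ± 48.7 to 96.6 ± 4.60 CPM in control cells (SD, n = 3). With the siRNA in uninduced cells 0 subunits passed by any of these 3 tools or at an unadjusted p under 0.05, but 9 were higher when uninduced control replicate 3 was left out.

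In the insulin, AKT and mTOR list, 1 of 19 genes rose and 6 fell with the siRNA in uninduced cells, where 15.4% of all tested genes were higher and 17.1% lower. Sgk1, a kinase that phosphorylates FoxO factors, rose from 84.0 ± 11.6 to 224 ± 10.8 CPM, and Prkaa2, a catalytic subunit of AMPK, fell from 7.76 ± 1.92 to 4.04 ± 1.01 CPM (SD, n = 3). Without both libraries that stood apart, 3 rose and 9 fell. At day 5, where 5.77% of all tested genes were lower, the list had 3 lower, or 6 without both libraries, with Prkaa2 at 12.4 ± 2.77 against 4.96 ± 1.10 CPM. Induction of control cells raised 9 and lowered 3 of the 19, with Deptor, an inhibitor of mTOR, at 19.5 ± 1.58 against 114 ± 11.1 CPM and Ddit4, another inhibitor of mTORC1, at 529 ± 19.4 against 55.8 ± 2.23 CPM.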
